A study of Arabidopsis thaliana with 20 samples.

Results

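The comparison described here sets Arabidopsis thaliana plants with a G:U hairpin RNA against EIN2 beside plants with a perfectly paired (WT) hairpin against the same gene. Its members were taken from the sample titles and the first of 2 read tables: G:U libraries 12 and 13 and WT libraries 15 and 17, so 4 of the 20 samples in the series. All 4 libraries are from the ecotype Columbia with no further mutation named, were made from total RNA of whole plants at 3 weeks of age, and carry a hairpin transgene. The G:U plants are labelled with an hpEIN2[G:U] transgene and the WT plants with an hpEIN2[WT] transgene, and WT in these names means the hairpin, not a plant without a transgene. The labels give neither the promoter nor the part of EIN2 used, and do not say whether a number marks a transgenic line, a plant or a pool, so the spread between libraries of a group may be technical. The target gene label reads EIN2 for WT library 15 but EIN3, EIN4 and EIN5 for the other libraries. Titles and table rows name EIN2 for each of them, and these were followed. No library without a hairpin was used, so the level of stem reads in plain Columbia plants is not known here.

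A hairpin RNA folds back on itself into a double-stranded stem joined by a loop. Plant Dicer-like enzymes cut the stem into small interfering RNAs (siRNAs) from both strands, of which the antisense strand can pair with the target mRNA. DCL4 makes 21-nt siRNAs, DCL2 makes 22-nt siRNAs and DCL3 makes 24-nt siRNAs. The 21-nt and 22-nt forms are mainly known for cutting or blocking mRNA with ARGONAUTE1, and the 24-nt forms for guiding DNA methylation with ARGONAUTE4. A G:U pair is a wobble pair, weaker than a G:C pair but still accommodated in an RNA helix. EIN2 (AT5G03280, chromosome 5 from 787428 to 793404 in TAIR10.1) encodes a membrane protein required for the ethylene response.

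The values are raw counts of stem reads by strand and by length from 18 to 25 nt. Sense reads were taken from the GU stem (the altered sequence) in G:U libraries and from the WT stem in WT libraries, and antisense reads from the WT stem in all 4. G:U libraries 12 and 13 held 111296 and 227392 stem reads, against 241211 and 98557 in WT libraries 15 and 17. Library totals were not given, so these counts do not measure how much siRNA a plant made, and all comparisons use shares within a library. Each of the 16 classes of strand and length held at least 129 reads in each library. The widest 95% Wilson interval of a size share reached 0.709 percentage points to either side, and that of an antisense share at a single length 4.06 points. These intervals cover counting error only.

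**Figure D1:**
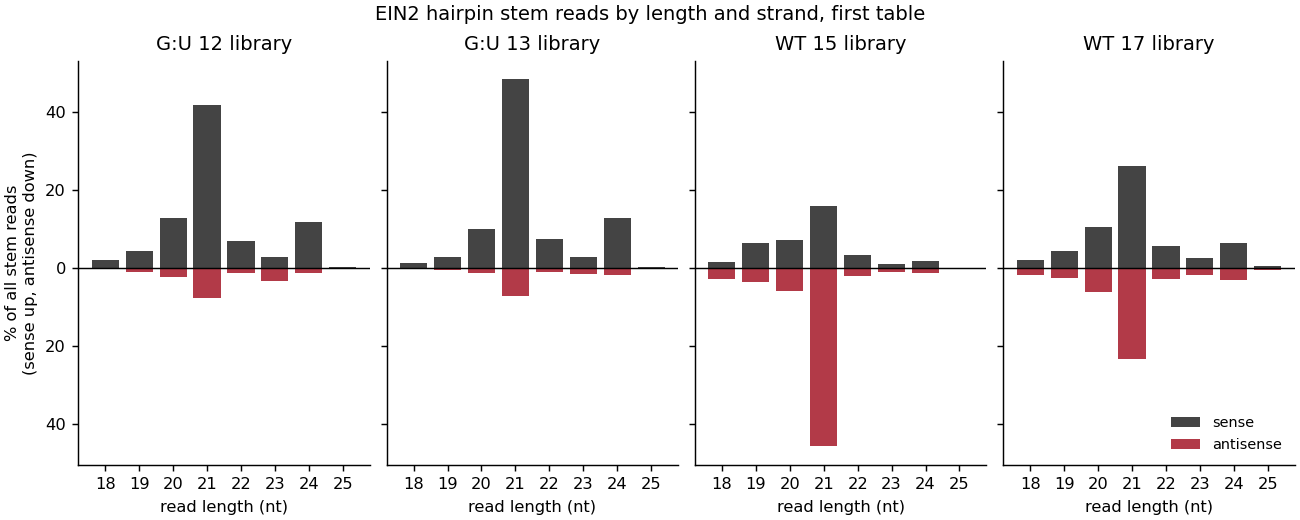
Stem reads of each library by length (x axis, nt) as a percentage of its stem reads of both strands (y axis), with sense reads upward and antisense reads downward, 1 panel for each of G:U 12, G:U 13, WT 15 and WT 17. The 21-nt sense class stands highest in both G:U libraries (41.8% and 48.5%), while the 21-nt antisense class is 7.53% and 7.15% there, against 45.8% and 23.3% in the WT libraries.

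The question behind the comparison is whether hairpins of different structure are cut into small RNAs differently. The balance of the strands differed between the hairpins. G:U libraries 12 and 13 had 18879 and 30895 antisense reads beside 92417 and 196497 sense reads. WT libraries 15 and 17 had 149468 and 41053 antisense reads beside 91743 and 57504 sense reads. Sense reads therefore outnumbered antisense reads in both G:U libraries and in WT library 17, while antisense reads were the more frequent in WT library 15. Antisense reads made up 17.0% and 13.6% of the stem reads with the G:U hairpin, against 62.0% and 41.7% in the WT libraries. The groups did not overlap. The mean was 15.3% ± 2.39 in G:U libraries and 51.8% ± 14.4 in WT libraries (SD, n = 2 each), a difference of -36.5 percentage points. A two-sided exact permutation test of 2 against 2 libraries has 6 arrangements and cannot go below p = 0.333, the value found here and for every measure below whose groups do not overlap, so no single share could be called different by it. Per sense read, there were 0.204 and 0.157 antisense reads in the G:U libraries, against 1.63 and 0.714 in the WT libraries.

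The 21-nt class, the DCL4 size, carried most of this difference. As a share of both strands, 21-nt antisense reads were 7.53% and 7.15% in G:U libraries 12 and 13, against 45.8% and 23.3% in WT libraries 15 and 17. Their mean difference of -27.2 percentage points was 74.5% of the whole antisense difference. This was also the largest class, with 73.8% and 56.0% of the antisense reads of WT libraries 15 and 17. A drop shared evenly by all lengths would therefore also fall mostly on it. Of the whole antisense difference, the 20-nt antisense reads accounted for 11.5%, the 19-nt reads for 6.16% and the 18-nt reads for 5.27%. The 22-nt and 24-nt reads together with the 25-nt reads added little (3.37%, 1.80% and 0.523%), and 23-nt antisense reads went the other way, with 2.41% ± 1.13 of all stem reads in G:U and 1.28% ± 0.604 in WT libraries (SD, n = 2 each, groups overlapping). On the sense strand, 21-nt reads made up 41.8% and 48.5% of all stem reads in the G:U libraries, against 15.9% and 26.1% in the WT libraries.

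The same length also held most of the spread between the WT libraries. WT library 15 had 110355 antisense and 38366 sense reads of 21 nt, which is 74.2% antisense, while WT library 17 had 22998 and 25768, or 47.2%. Without the 21-nt reads the antisense share was 18.6% and 14.5% in the G:U libraries, against 42.3% and 36.3% in the WT libraries. The gap between the WT libraries was then 6.03 percentage points in place of 20.3, and the groups still did not overlap (difference in means -22.7 points). Antisense excess over sense reads in WT library 15 was seen at 18 nt and 21 nt, where the antisense share was 62.2% and 74.2%, while at the other 6 lengths it lay between 35.0% and 44.5%.

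**Figure D2:**
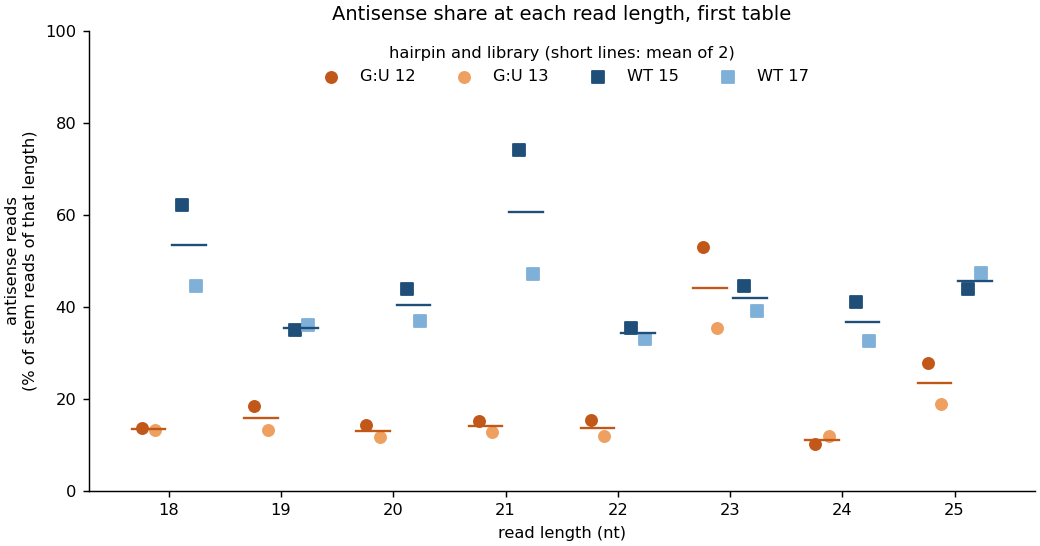
Antisense reads as a percentage of the stem reads of each length (y axis) at 18 to 25 nt (x axis), 1 point per library (circles G:U, squares WT) with a short line at each mean of 2. The G:U points lie below the WT points at every length except 23 nt, where G:U libraries 12 and 13 reach 53.1% and 35.3%.

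Taken length by length, the antisense share was lower with the G:U hairpin at 7 of the 8 lengths in the sense that the libraries of the hairpins did not overlap (87.5% of the lengths). At 22 nt, the DCL2 size, it was 15.4% and 11.9% in G:U libraries 12 and 13, against 35.5% and 33.1% in WT libraries 15 and 17. At 24 nt, the DCL3 size, it was 10.2% and 11.9% in the G:U libraries, against 41.1% and 32.5% in the WT libraries. The G:U libraries were 3.46 and 1.71 percentage points apart at 22 nt and 24 nt, and the WT libraries 2.41 and 8.65. The differences in means at these lengths were -20.6 and -25.7 points. At 20 nt the shares were 14.4% and 11.7% in the G:U libraries, against 44.0% and 36.9% in the WT libraries. At 19 nt they were 18.5% and 13.2% in the G:U libraries, against 35.0% and 36.0% in the WT libraries, and at 18 nt 13.7% and 13.3%, against 62.2% and 44.6%. Those of 25 nt, the rarest length, were 27.7% and 18.98% antisense in the G:U libraries and 43.9% and 47.4% in the WT libraries.

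Reads of 23 nt were the exception. Their antisense share was 53.1% and 35.3% in G:U libraries 12 and 13, against 44.5% and 39.2% in WT libraries 15 and 17, so the WT values lay between the G:U values. The difference in means was 2.32 percentage points (exact permutation p = 1, n = 2 each), and it was -6.55 without G:U library 12 and -0.341 without WT library 17. G:U library 12 held 3564 antisense and 3153 sense reads of this length, the one class pair in the G:U libraries where antisense reads outnumbered sense reads. G:U library 13 held 3663 antisense and 6709 sense reads. No Dicer-like enzyme of Arabidopsis is named for this length, although DCL3 is known to release 23-nt strands beside 24-nt ones.

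Size profiles were next compared within each strand, so that the strand difference does not enter. Over the 16 classes the libraries of the hairpins did not overlap in 11 (68.8%), with G:U higher in 5 and lower in 6. A fit across all 16 classes (edgeR's quasi-likelihood test with the strand total as offset, Benjamini-Hochberg adjusted over 16 classes, threshold 0.05) called none of them (0%). In this fit 3 classes had an unadjusted p under 0.05, and DESeq2 on the same totals called 3. Without WT library 17 the edgeR fit called 3 classes, namely 22-nt and 25-nt antisense and 24-nt sense, all higher with the G:U hairpin. In that fit the lone WT library is assumed to vary like the G:U pair, which alone gives the spread. With both strands as denominator it called 5. Shares within a strand are tied to each other, since a lower 21-nt share raises the others.

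**Figure D3:**
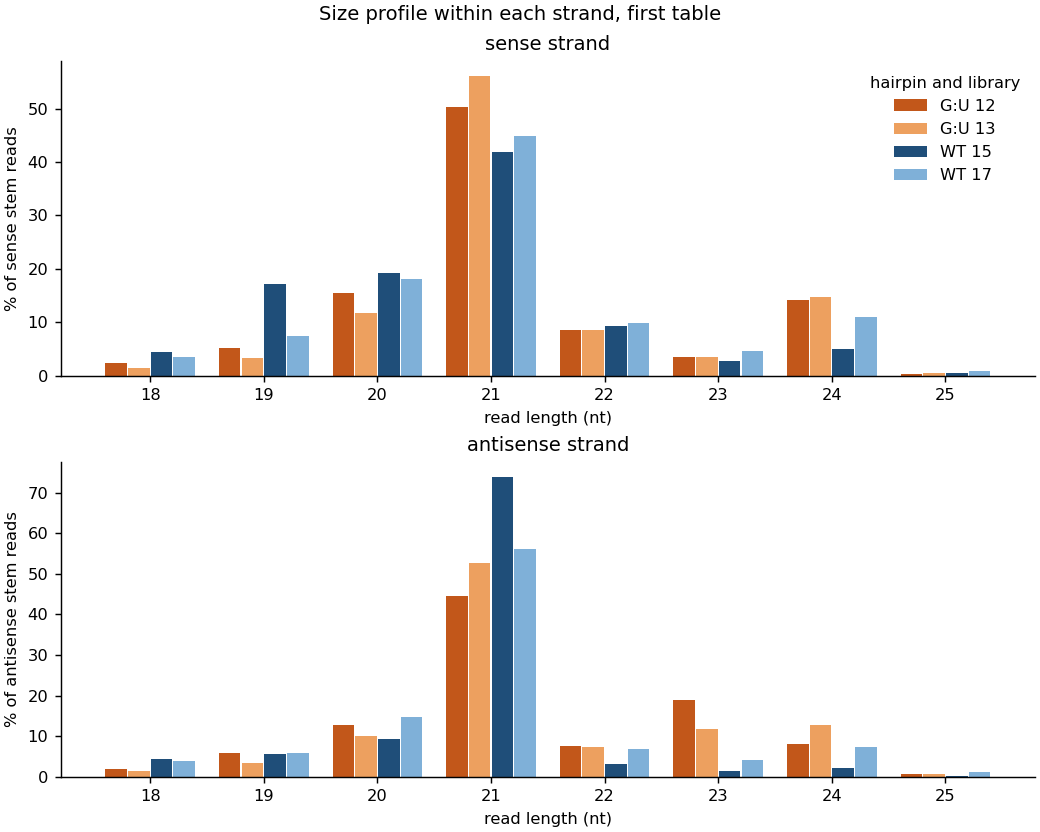
Size shares within the sense strand (top) and the antisense strand (bottom), as a percentage of that strand's stem reads (y axis) at 18 to 25 nt (x axis), 1 bar per library. The 23-nt antisense bars of G:U 12 and 13 (18.9% and 11.9%) stand above those of WT 15 and 17 (1.38% and 4.10%), and the 19-nt sense bar of WT 15 (17.2%) stands apart from the rest.

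Among antisense reads the 23-nt class differed most in relative size. It held 18.9% and 11.9% of antisense reads in G:U libraries 12 and 13, against 1.38% and 4.10% in WT libraries 15 and 17. The groups did not overlap, and the lower G:U value was well above the higher WT value. The log2 fold change was 2.49 ± 0.67 (SE), with an unadjusted p of 0.0182 and an adjusted p of 0.146 in edgeR's quasi-likelihood test. It was 1.90 without WT library 15, 3.48 without WT library 17 and 0.91 with the total of both strands as offset. It passed with DESeq2 (adjusted p = 0.000492) and with all 15 libraries in 1 edgeR fit (adjusted p = 0.00906), and the adjusted p ranged from 0.000492 to 0.725 over the 11 alternatives. The fit of all libraries takes its spread from the second-table groups as well, the mutants among them. It treats libraries of the same number in both tables as independent. The 23-nt class was exceeded only by the 21-nt class among antisense reads of G:U library 12 and by the 21-nt and 24-nt classes in G:U library 13, whereas 6 classes exceeded it in WT library 15 and 5 in WT library 17. Per 24-nt antisense read there were 2.38 and 0.929 of 23 nt in the G:U libraries, against 0.652 and 0.554 in the WT libraries.

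Sense reads of 23 nt made up 3.41% of the strand in each G:U library, against 2.80% and 4.54% in the WT libraries, so the WT values lay on either side of the G:U values. Per 22-nt read there were 0.401 and 0.398 sense reads of 23 nt in the G:U libraries and 0.304 and 0.465 in the WT libraries. On the antisense strand the same ratio was 2.49 and 1.60 in the G:U libraries, against 0.443 and 0.606 in the WT libraries. As shares within a strand, the hairpins stood apart at 23 nt among antisense reads and overlapped among sense reads. As shares of both strands this was the other way round, with sense reads at 2.83% and 2.95% in the G:U libraries, against 1.07% and 2.65% in the WT libraries, and antisense reads at 3.20% and 1.61%, against 0.855% and 1.71%. The difference between the strands was not tested.

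The 21-nt class was the largest on both strands of all 4 libraries, but its share stood in opposite order on the strands. Among antisense reads it was 44.4% and 52.6% in G:U libraries 12 and 13, against 73.8% and 56.0% in WT libraries 15 and 17. Among sense reads it was 50.3% and 56.1% in the G:U libraries, against 41.8% and 44.8% in the WT libraries. Neither strand's groups overlapped, though G:U library 13 and WT library 17 were only 3.41 points apart among antisense reads. The antisense difference of -16.4 percentage points was -7.51 without WT library 15 and -25.3 without WT library 17. Neither passed the threshold in the main fit, with log2 fold changes of -0.42 ± 0.32 for antisense and 0.30 ± 0.29 for sense reads (SE, edgeR adjusted p = 0.429 and 0.516). With the total of both strands as offset, antisense passed (-2.23, edgeR adjusted p = 0.00698) and sense did not (1.10, adjusted p = 0.161). With TMM of both strands, antisense and sense passed (-2.12 and 1.43, edgeR adjusted p = 0.00756 and 0.0498). Both denominators carry the strand difference into each class. In the G:U libraries the sense and antisense profiles were closer to each other in the 21-nt class than in WT library 15, where the shares were 41.8% of sense and 73.8% of antisense reads.

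The 24-nt class, the DCL3 size, made up a larger part of each strand in both G:U libraries of the first table than in either of its WT libraries. Of sense reads it was 14.3% and 14.8% in G:U libraries 12 and 13, against 4.94% and 11.0% in WT libraries 15 and 17. The G:U values were nearly equal, and the WT values differed from each other by 6.05 points, with WT library 15 the lower. The log2 fold change was 0.87 ± 0.48 (SE, edgeR adjusted p = 0.429). It was 1.56 and passed without WT library 17 (adjusted p = 0.0386), where the G:U pair alone gives the spread. Without WT library 15 it was 0.40 (adjusted p = 0.214), and the difference was 3.54 points in place of 6.56. Over the 11 alternatives the adjusted p ranged from 0.00756 to 0.832. Of antisense reads it was 7.95% and 12.8% in the G:U libraries, against 2.12% and 7.41% in the WT libraries, with only 0.540 points between the lower G:U and the higher WT library. As a share of both strands the order of the antisense means turned (1.54% in G:U and 2.20% in WT libraries), and the groups overlapped. Per 21-nt read, there were 0.283 and 0.264 sense reads of 24 nt in the G:U libraries, against 0.118 and 0.245 in the WT libraries.

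The 22-nt class, the DCL2 size that can start secondary siRNA production, was small with both hairpins. It held 8.51% and 8.58% of sense reads in the G:U libraries, against 9.23% and 9.78% in the WT libraries, a difference of -0.959 percentage points that was 2.63 when taken over both strands. Of antisense reads it held 7.59% and 7.40% in the G:U libraries, against 3.12% and 6.78% in the WT libraries, a difference of 2.55 points that was -1.23 over both strands. G:U libraries 12 and 13 were almost alike in this class on each strand, and the antisense difference rested mainly on WT library 15. Its log2 fold changes were -0.15 ± 0.28 for sense and 0.60 ± 0.47 for antisense reads (SE, edgeR adjusted p = 0.752 and 0.429).

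Reads shorter than 21 nt made up less of the sense strand in both G:U libraries than in either WT library. Lengths of 18 to 20 nt together made up 23.2% and 16.6% of sense reads in G:U libraries 12 and 13, against 40.8% and 29.0% in WT libraries 15 and 17. The 19-nt sense class alone was 5.24% and 3.39% in the G:U libraries, against 17.2% and 7.40% in the WT libraries, with WT library 15 far above the other libraries. Its log2 fold change was -1.51 ± 0.55 (SE, edgeR unadjusted p = 0.0478, adjusted p = 0.239). Without WT library 15 it was -0.78, and the difference in share was -3.08 points in place of -7.97. It passed with DESeq2 and with all libraries in 1 fit (adjusted p = 0.0375 and 0.00906), and the adjusted p ranged from 0.00906 to 0.832 over the 10 alternatives. The 20-nt sense class was 15.5% and 11.8% in the G:U libraries, against 19.3% and 18.1% in the WT libraries, although over both strands its mean was higher with the G:U hairpin (11.5% and 8.94%, groups overlapping).

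Within the antisense strand, the hairpins did not overlap at 18 nt but overlapped at 19 nt and 20 nt. Antisense reads of 18 nt were 1.90% and 1.42% of the strand in the G:U libraries, against 4.41% and 3.92% in the WT libraries. Both groups were tight, and this class had the lowest unadjusted p of the 16. The log2 fold change was -1.33 ± 0.32 (SE, edgeR unadjusted p = 0.0128, adjusted p = 0.146). It passed with DESeq2 (adjusted p = 0.0375) and with all libraries in 1 fit (adjusted p = 0.00147), within a range of 0.000344 to 0.832 over the 10 alternatives. Sense reads of 18 nt showed the same order, at 2.44% and 1.46% in the G:U libraries, against 4.36% and 3.47% in the WT libraries (log2 fold change -1.01 ± 0.40, SE, edgeR adjusted p = 0.239). Antisense reads of 19 nt were 5.84% and 3.30% in the G:U libraries and 5.66% and 5.83% in the WT libraries, and those of 20 nt were 12.8% and 9.93% in the G:U libraries and 9.28% and 14.8% in the WT libraries. As shares of both strands these lengths did not overlap, at 0.990% and 0.448% for 19 nt in the G:U libraries, against 3.51% and 2.43% in the WT libraries, and at 2.16% and 1.35% for 20 nt, against 5.75% and 6.17%. Reads of 25 nt reached at most 1.13% of a strand in any of the 4 libraries and overlapped on both strands.

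In the first table the mean read length was higher with the G:U hairpin on both strands. Sense reads averaged 21.3 and 21.4 nt in G:U libraries 12 and 13, against 20.6 and 21.1 nt in WT libraries 15 and 17. Antisense reads averaged 21.4 and 21.5 nt in the G:U libraries, against 20.8 and 21.04 nt in the WT libraries. The groups did not overlap on either strand, and WT library 15 had the shortest mean on both. Lengths of 22 to 24 nt together made up 34.4% and 32.0% of antisense reads in the G:U libraries, against 6.61% and 18.3% in the WT libraries.

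**Figure D4:**
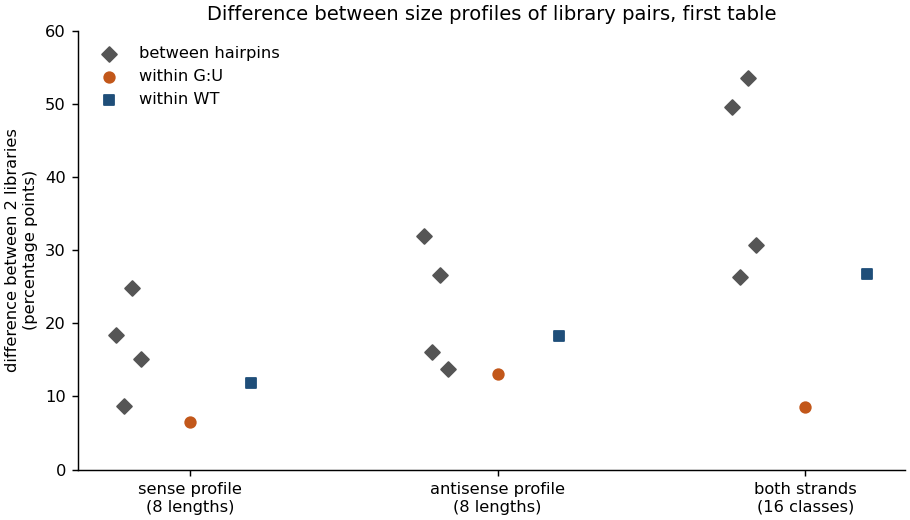
Difference between the size profiles of 2 libraries (y axis, percentage points, the sum of absolute class differences divided by 2), for the sense profile, the antisense profile and the 16 classes of both strands (x axis). Diamonds are the 4 pairs between hairpins, the circle the pair of G:U libraries and the square the pair of WT libraries. For both strands together the G:U pair lies at 8.62 and the WT pair at 26.8, with the pairs between hairpins from 26.4 to 53.6.

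How far libraries of 1 hairpin differed among themselves was set beside the differences between hairpins. The measure was the part of the reads that would have to change class to turn one profile into the other, in percentage points. Over both strands G:U libraries 12 and 13 were 8.62 points apart and WT libraries 15 and 17 were 26.8 points apart. The 4 pairs of a G:U and a WT library were 49.6 and 53.6 points apart for WT library 15 and 26.4 and 30.7 for WT library 17, so the G:U library 12 and WT library 17 pair was no farther apart than the WT libraries were. Within the antisense strand the G:U pair was 13.1 and the WT pair 18.3 points apart, with pairs between hairpins from 13.7 to 31.9. Within the sense strand the G:U pair was 6.53 and the WT pair 11.8 points apart, with pairs between hairpins from 8.75 to 24.8. On each strand WT library 17 was nearer to G:U library 12 or 13 than to WT library 15 in at least 1 of its pairs. In a single library the sense and antisense profiles were 16.4 and 8.68 points apart in the G:U libraries, against 32.1 and 11.9 points in the WT libraries.

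**Figure D5:**
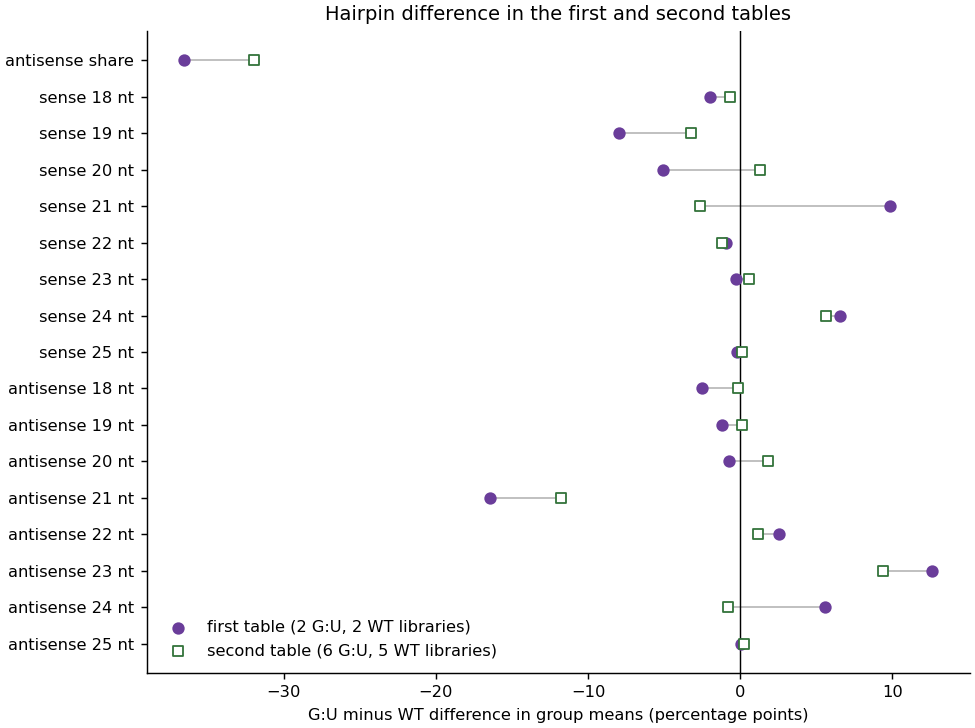
Difference in group means, G:U minus WT (x axis, percentage points), for the antisense share and the 16 size shares within a strand (y axis), in the first table (filled circles, 2 and 2 libraries) and the second table (open squares, 6 and 5 libraries of Col-0, nrpd1a and ocp11). The antisense share is far below 0 in both tables, at -36.5 and -31.9, while the 20-nt and 21-nt sense shares lie on opposite sides of 0.

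The first-table differences were then compared with those of the second table, which holds 11 further libraries (6 G:U and 5 WT) in Col-0 and in the mutants nrpd1a (RNA polymerase IV) and ocp11 (ARGONAUTE4). The tables are named as the first and second batch of sRNA-seq, and the mutants occur only in the second. Table, batch and background therefore cannot be told apart in the pooled comparison. The second table is pooled over its backgrounds here, and the permutation treats the libraries of both tables as independent although the numbers 12, 13 and 15 occur in both. Over 17 measures, an exact permutation of table labels within each hairpin (588 arrangements, two-sided) found none (0%) with an adjusted p under 0.05, and 1 with an unadjusted p under 0.05. The antisense share differed by -36.5 percentage points in the first and -31.9 in the second table, a difference of -4.60 between the tables (exact permutation p = 0.605, adjusted p = 0.735). That difference was 8.78 when set against second-table Col-0 alone and -8.04 against nrpd1a and ocp11 alone. The 23-nt antisense share was higher with the G:U hairpin by 12.6 points in the first and by 9.39 in the second table (difference 3.23, exact permutation p = 0.551, adjusted p = 0.735). In the second table it ran from 8.54% to 25.4% in G:U and from 1.72% to 8.80% in WT libraries, overlapping by a small margin.

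The lowest p was that of the 18-nt antisense share, which differed by -2.51 points in the first and -0.168 in the second table (exact permutation p = 0.0306, adjusted p = 0.520). The 21-nt sense share was higher with the G:U hairpin by 9.87 points in the first table, against a difference of -2.67 in the second (exact permutation p = 0.156, adjusted p = 0.532). For 20-nt sense reads the differences were -5.05 and 1.33 points (exact permutation p = 0.116, adjusted p = 0.532), and for 24-nt antisense reads 5.59 and -0.801 (exact permutation p = 0.425, adjusted p = 0.735). The tables thus gave the same sign for the antisense share and the 23-nt antisense share and opposite signs for 7 of the 16 size shares, these 3 among them, with none of the differences between tables past the threshold. At 23 nt the antisense share of both strands ran from 33.4% to 60.8% in the 6 G:U libraries of the second table, against 45.2% to 78.1% in its 5 WT libraries. The groups overlapped there as they did in the first table.

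In the second table, Col-0 libraries bear the numbers 12, 13 and 15 as well, but whether these are the same lines is not stated. Their antisense share was 21.9% and 18.7% in G:U libraries 12 and 13, against 65.6% in WT library 15. Each was above the value of the same number in the first table (17.0%, 13.6% and 62.0%). The 24-nt sense share was likewise 30.7% and 28.1% in G:U libraries 12 and 13, against 22.4% in WT library 15, where the first table had 14.3%, 14.8% and 4.94%. On the antisense strand the 24-nt order was reversed. Its share was 12.2% and 11.0% in these G:U libraries, against 25.6% in WT library 15. That Col-0 difference was -14.0 points, against 5.59 in the first table. The 23-nt antisense class was 10.4% and 10.9% in the G:U libraries of Col-0 in the second table, against 8.80% in WT library 15, a difference of 1.87 points in place of the pooled 9.39. The Col-0 differences for 18-nt and 21-nt antisense reads were 0.597 and 5.20 points, opposite in sign to those of the first table (-2.51 and -16.4). Antisense reads there averaged 21.42 and 21.36 nt in G:U libraries 12 and 13, against 21.87 nt in WT library 15, the reverse of the first table. Lengths of 22 to 24 nt made up 31.7% and 31.9% of antisense reads in these G:U libraries, against 44.2% in WT library 15. Mean sense lengths kept the order of the first table (21.9 and 21.8 nt, against 21.6 nt). With 1 WT library in Col-0 there is no replicate check. In WT library 15 the antisense excess was thus present in both tables, but with 21-nt reads at 42.1% of its antisense reads in the second table, against 73.8% in the first. At 23 nt the antisense share was 38.2% and 33.4% in G:U libraries 12 and 13 of the second table, against 78.1% in WT library 15, so at this length the hairpins were apart in Col-0 of the second table and not in the first.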

How the data were processed

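Small RNA libraries of whole plants were compared as 2 G:U against 2 WT hairpin libraries. The authors deposited raw read counts per library, strand, length and stem, per the file headers. Tools named are cutadapt and Bowtie 1.0, with build TAIR10, per the submitters' processing notes. How many mismatches were allowed, and where reads matching both stems went, is not stated, and either could move reads between the stems. In the second table each library has 4 entries headed replicate. A chi-square test of classes with at least 20 reads found no difference between entries after adjustment (lowest unadjusted p = 0.0101, adjusted 0.111, 11 libraries), and they were summed as 1 library. One nrpd1a library numbered 13 in the table was used as the sample titled 3.

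Shares over 18 to 25 nt were compared with exact permutation tests (Python 3.11.15, numpy 2.4.6, scipy 1.17.1) and the 16 class counts with edgeR 4.0.16 (quasi-likelihood, no trend of dispersion, as 16 classes are few for one), DESeq2 1.42.0 being an alternative. With so few classes the pooling of spread over classes is weak. The SE given with an edgeR log2 fold change is its absolute value divided by the square root of the test's F statistic. Both tests were checked on simulated data, but with less spread between libraries than several measures showed here. The check therefore does not give their error rates for these data. By rule, all 16 classes are given, those of 21 to 24 nt in full. The comparison, classes and tests were chosen with earlier results of these data known. Alternatives were a 20 to 24 nt window, both stems summed, other denominators and scalings, a minimum of 100 reads, other library sets and each library left out. The minimum of 100 reads removed no class, since each held at least 129, so it only repeats the main fit.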

Additional observations from a re-analysis of the deposited data

Results flagged for a closer look

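Reads on the stem that a strand's main count leaves out were present in both G:U libraries. They are given as values only, since no hairpin-free library shows the background and reads placed on the wrong stem were not tested. Sense reads on the WT stem, which carries the unaltered EIN2 sequence, numbered 830 in G:U library 12, or 0.890% of its sense reads (95% Wilson interval 0.832 to 0.952). They numbered 1290 in G:U library 13, or 0.652% (0.618 to 0.689). Antisense reads on the GU stem numbered 71 in G:U library 12, or 0.375% of its antisense reads (0.297 to 0.472), and 218 in G:U library 13, or 0.701% (0.614 to 0.7996). The 21-nt class held 44.7% and 57.1% of the WT-stem sense reads of G:U libraries 12 and 13, and the 18-nt class 13.0% and 5.81%. The 24-nt class held 6.27% and 6.05% of them, against 14.3% and 14.8% of the sense reads on the GU stem. With the reads of both stems summed, the antisense share of the G:U libraries was 16.9% and 13.6%. No group held enough libraries for a check of single outlying values.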

How the results depend on the processing

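The lower antisense share of the G:U libraries kept its direction under the window, the summed stems and left-out libraries, at -38.3 percentage points over 20 to 24 nt, -36.6 with both stems summed and -46.7 to -26.4 with single libraries left out. Reads of the WT stem alone, which leave out the GU-stem sense reads of the G:U libraries, were 95.8% and 96.0% antisense in G:U libraries 12 and 13. The lengths without overlap numbered 7 to 8 of 8 and the classes 12 to 15 of 16 with single libraries left out. Overlap is less likely with fewer libraries, so these counts cannot be set against the main 7 and 11. The classes called by the fit across classes (0) became 5 with the total of both strands as offset, 6 with TMM of both strands, 3 with DESeq2, 4 with all libraries in 1 fit and 0 to 3 with single libraries left out. Each of these fits tested 16 classes. The first 2 denominators carry the strand difference into each class. Between the tables, no measure was called under the alternatives run (0 with each library left out). There were 147 or 168 arrangements with a library left out and 225 against nrpd1a and ocp11 alone. These are too few for 1 measure to pass alone after adjustment over 17, so the lack of calls there decides little. With Col-0 alone no measure could be called, since 18 arrangements allow no exact permutation p below 0.0556. The antisense difference between tables turned to 8.78 against Col-0 alone, with -14.8 to 5.55 over left-out libraries.

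As shares of both strands, differences turned for sense reads of 20, 22, 23 and 25 nt (2.58, 2.63, 1.03 and 0.0213) and antisense reads of 22, 24 and 25 nt (-1.23, -0.658 and -0.191). The 24-nt antisense log2 fold change turned to -0.51 with the total of both strands and -0.12 with TMM. With single libraries left out, size share differences that turned ran from -1.13 to 0.612 (23-nt sense), -0.471 to 0.00543 (25-nt sense), -2.45 to 0.0909 (19-nt antisense), -3.47 to 2.06 (20-nt antisense) and -0.424 to 0.506 (25-nt antisense). The 23-nt antisense share by length ran from -6.55 to 11.2, and the difference between tables in the 23-nt antisense class from -0.281 to 6.74. The causes were not tested. No paired analysis was possible because the G:U and WT libraries of the first table share no number. Between the tables, a replicate block of the libraries numbered 12, 13 and 15 gave -1.38 for the antisense difference, with no test, as a shared number is not stated to mean a shared line. Where libraries of 1 hairpin nearly coincide, as in the G:U antisense share at 18 nt (0.399 points apart), their gap is within counting error.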
